A study of Mus musculus with 40 samples.

Results

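Hearts in which cardiomyocytes had expressed interleukin 11 (IL11) for 3 weeks were compared with control hearts within each sex, and the changes were then compared between males and females. By their labels, 15 of the 40 heart libraries of the series enter this comparison: 4 male and 4 female 3-week libraries, 3 male controls and 4 female controls. The series as a whole also holds uninduced, 1-week and 6-week hearts, and each library is polyadenylated RNA of 1 mouse. CM-Il11-Tg mice were heterozygous for a Rosa26-Il11 transgene, bred on C57BL/6N, and for MerCreMer (MCM), bred on C57BL/6J, a Cre recombinase that is driven by the α-myosin heavy chain promoter of cardiomyocytes and needs tamoxifen to act. Tamoxifen was injected on 5 days in a row, starting at 8 weeks of age, and hearts were taken 3 weeks after induction. The controls were littermates of the same age with MCM and without Rosa26-Il11, labelled WT, and they had tamoxifen too, so Cre and tamoxifen were common to every library compared here. Their labels give the time point as Baseline, and how many weeks after tamoxifen they were taken is not given in the sources used here. The male libraries Heart31 and Heart35, which carry a control label and a 6-week label each, were left out, so the control males are replicates 1, 3 and 4.

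IL11 is a cytokine of the interleukin 6 family. It binds its own receptor, IL11RA, on the target cell, and the pair engages gp130, the signalling chain that the family shares, whose JAK kinases activate STAT3 and ERK. STAT3 in turn raises feedback inhibitors such as SOCS3. In the heart the receptor is best known from fibroblasts and other stromal cells, and the cytokine is known for its link to fibrosis, inflammation and loss of contractile function.

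Levels are read counts scaled to library size (CPM), listed in replicate order, and the tables of the sexes were scaled separately, so levels are compared only within a sex. Changes are log2 fold changes of CPM + 0.5 with their standard error (SE) and a Benjamini-Hochberg adjusted p from limma. A gene is said to have risen or fallen where that p was under 0.05, and it is called differentially expressed where it also changed at least 2-fold. Low values make this scale understate a change. The 15 libraries held 21458115 to 65333832 reads on the listed genes. The labelled tissue was checked by the cardiomyocyte myosin *Myh6*, which stood at 14515 to 36419 CPM. Reads from the mitochondrial genome took 25.9 to 28.5% of control male libraries and 18.9 to 24.0% of 3-week male libraries, against 28.7 to 31.7% and 19.9 to 24.1% in females. Some libraries stood apart in single gene groups: replicate 1 of the 3-week males in genes induced by interferon gamma, replicate 3 of the 3-week females in B cell genes, and replicate 1 of the control males in erythroid genes (7903 CPM summed, against 2959.6 and 1697 CPM in the other control males). The labels give the tissue as heart, while the study's text speaks of the left ventricle, and which of these was sequenced is not settled here. In tissue RNA, fewer cells of a type and less RNA per cell cannot be told apart.

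*Il11* itself, on chromosome 7 (4775372 to 4785858, GRCm39), was the gene with the largest rise in both sexes. In control males it stood at 0, 0.114 and 0.147 CPM and in 3-week males at 529, 336, 422 and 398 CPM (log2 fold change 9.48 ± 0.23, adjusted p = 5.17e-16). Control females had 0.0431, 0.145, 0 and 0.166 CPM and 3-week females 504, 541, 445 and 488 CPM (9.72 ± 0.24, adjusted p = 1.29e-16), at least 2973-fold over a floor of 3 reads per control library. No 3-week library came near the control range, and the lowest 3-week library, replicate 2 of the males, still held 336 CPM. Reads of the transgene and of the endogenous gene cannot be told apart in these tables. The change did not differ detectably between the sexes (difference of log2 fold changes, females minus males, 0.24 ± 0.36, adjusted p = 1). An exact two-sided permutation test on *Il11* alone gave p = 0.0571 in males and p = 0.0286 in females, the smallest values that 35 and 70 arrangements allow.

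**Figure D1:**
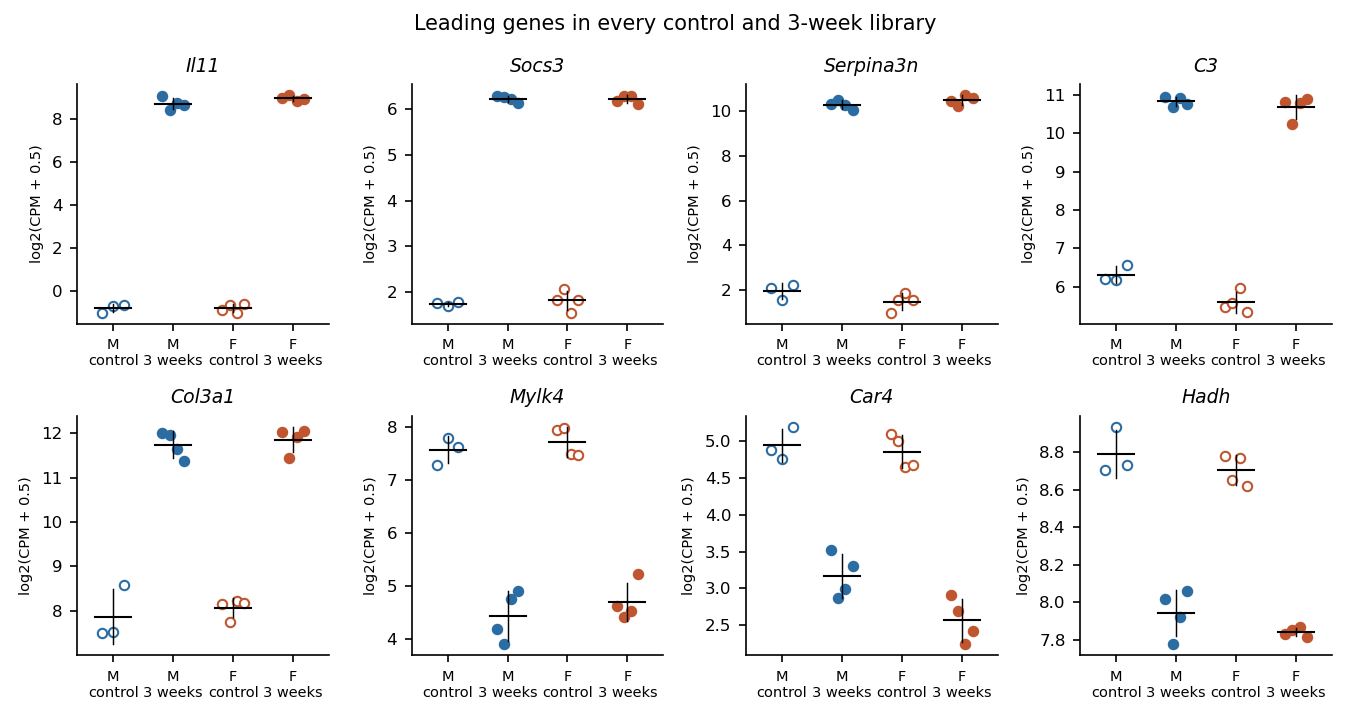
Leading genes in every control (open circles) and 3-week (filled circles) library of males (M, blue) and females (F, orange). The vertical axis is log2(CPM + 0.5), horizontal bars are group means and vertical lines 1 SD; for each of these 8 genes the 3-week and control libraries of a sex do not overlap, with *Il11* at 336 to 529 CPM in 3-week males and 445 to 541 CPM in 3-week females.

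The response was broad and mostly upward. In males 943 genes were called higher (5.57% of 16931 tested) and 199 lower (1.18%), and in females 1099 were called higher (6.48% of 16956) and 265 lower (1.56%). Without the 2-fold minimum, 13.2% of genes rose and 8.1% fell in males, and 16.8% rose and 14.5% fell in females. Of the 16625 genes tested in both sexes, 11.3% rose in both and 5.91% fell in both, and these shares are the background for the gene groups below. The shared calls came to 810 genes higher and 112 genes lower in both sexes, 80.7% of the male calls and 67.6% of the female calls. Their control and 3-week libraries did not overlap in either sex for 911 of the 922. These genes were called on the same libraries, so this count adds no support of its own. Over all genes, with each sex taken alone, such non-overlap was seen for 33.1% in males and 37.5% in females. At least an 8-fold rise in both sexes was reached by 68 genes, and a fall of that size by 1 gene, *Mylk4*. The large falls were thus few, and the plot of male against female changes shows a long upper arm and a short lower one. The 10 largest non-overlapping rises were *Il11*, *Serpina3n*, *Hp*, *Mmp3*, *Cpxm1*, *Il33*, *C4b*, *Nfasc*, *Cxcl13* and *Comp* in males, and the female 10 differed only in holding *Cfi* in place of *Cpxm1*. The 10 largest falls were *Mylk4*, *Inmt*, *D630003M21Rik*, *Scd4*, *Plekhh1*, *Dbh*, *Casq1*, *Clcn1*, *Fibin* and *Hcn2* in males, and *Timp4*, *Mylk4*, *Scd4*, *D630003M21Rik*, *Strit1*, *Pde4c*, *Car4*, *Pdk4*, *Rgcc* and *Col4a4* in females.

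**Figure D2:**
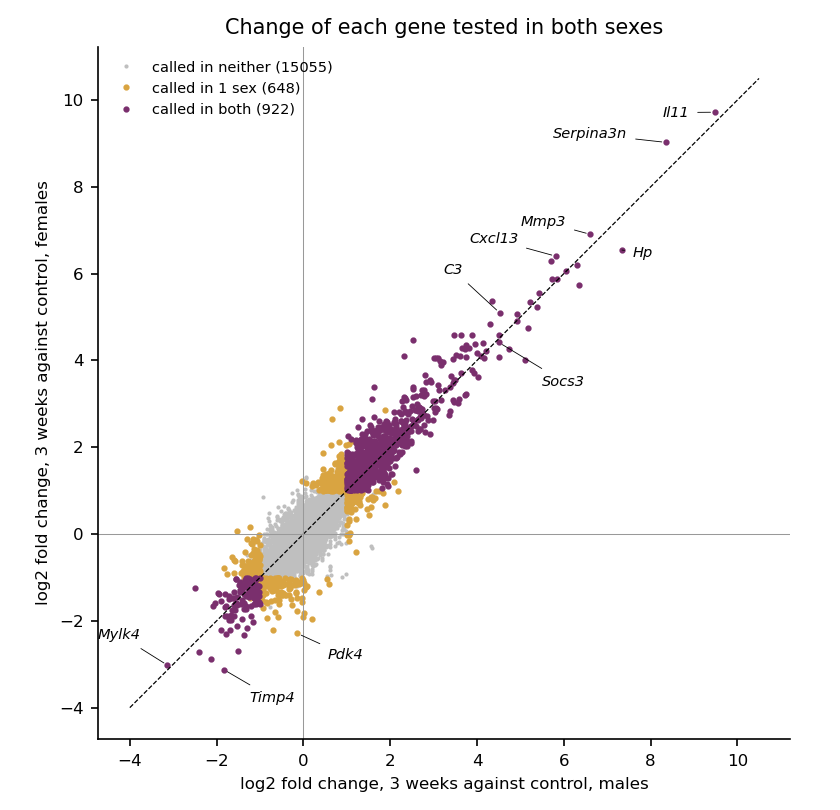
Log2 fold change at 3 weeks against control in males (horizontal) and females (vertical), 1 point for each of the 16625 genes tested in both sexes, with the dashed line marking equal change. The 922 genes called in both sexes (purple) run from *Mylk4* at -3.13 and -3.02 up to *Il11* at 9.48 and 9.72, and 648 genes (ochre) were called in 1 sex.

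Some genes rose on the receptor side of the pathway and some on its feedback side, where *Socs3* rose furthest. Of 11 genes for IL11, its receptor, its relatives' receptors and the kinases and STATs behind them, 6 rose in both sexes, or 5 of 10 without *Il11* itself, and 1, *Lifr*, the receptor of leukaemia inhibitory factor, fell in females (-0.40 ± 0.12, adjusted p = 0.0166), a call lost without 3-week replicate 3 (adjusted p = 0.0524). *Il6st*, which encodes gp130, rose by 0.69 ± 0.12 in males and 1.00 ± 0.14 in females on the log2 scale (adjusted p = 0.000267 and 1.1e-05), and *Il11ra1*, the specific receptor chain, by 0.45 ± 0.16 and 0.48 ± 0.13 (adjusted p = 0.0469 and 0.00884). The male call on *Il11ra1* was narrow and was lost without 3-week replicate 1, 2 or 3 or without any 1 control (adjusted p = 0.0666 to 0.173). *Osmr*, the gp130 partner that binds oncostatin M, went further, from 21.5, 20.6 and 19.99 CPM to 69.6, 83.2, 86.9 and 94.5 CPM in males (1.98 ± 0.20, adjusted p = 4.8e-07) and from 23.0, 19.6, 23.1 and 24.5 CPM to 87.0, 68.6, 78.8 and 85.9 CPM in females (1.80 ± 0.25, adjusted p = 1.26e-05). *Stat3* rose in both sexes (0.89 ± 0.15 and 0.70 ± 0.14), whereas the kinase *Jak1* was at -0.07 ± 0.11 and -0.04 ± 0.13 and did not pass the test in either (adjusted p = 0.73 and 0.85). Among 13 STAT3-linked regulators, 8 rose in both sexes and none fell (median log2 fold change 1.07 in males and 0.91 in females, against 0.00 and -0.02 over all genes).

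*Socs3*, the feedback inhibitor of gp130 signalling, showed the steepest change of these. It stood at 2.85, 2.69 and 2.90 CPM in control males and at 77.5, 76.8, 74.8 and 69.6 CPM in 3-week males (4.504 ± 0.25, adjusted p = 9.66e-11). In females it went from 3.01, 3.68, 2.40 and 2.99 CPM to 72.2, 78.3, 77.5 and 68.7 CPM (4.42 ± 0.39, adjusted p = 2.59e-08). In each sex the 3-week hearts formed a tight group far above every control. *Bcl3*, an IκB family co-regulator (2.09 ± 0.27 and 2.56 ± 0.28), *Myc* (1.85 ± 0.26 and 1.41 ± 0.30) and *Socs1*, which encodes another JAK inhibitor (1.32 ± 0.26 and 1.43 ± 0.22), rose in both sexes. *Socs2* (-0.23 ± 0.14 and -0.26 ± 0.13) and *Cish* (-0.47 ± 0.32 and -0.08 ± 0.15), which encode inhibitors known best as STAT5 targets, passed the test in neither.

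The inverted repeat TTCNNNGAA, the core to which STAT dimers are known to bind, was looked for in the 250 bases before the start of each gene in RefSeq promoters (GRCm38.p6), where its symmetry makes 1 strand cover both. It was present for 7.2% of the 11302 genes with a promoter that were tested in both sexes, for 66 of 573 (11.5%) of those called higher in both sexes and for 4 of 82 (4.88%) of those called lower. The TATA box letters TATAAA, searched on both strands over the same promoters as a comparison, had shares of 8.63%, 71 of 573 (12.4%) and 8 of 82 (9.76%), so both letter patterns were more frequent among genes called higher. A match is a description of these letters and not a bound site. Stretches around the repeat are shown for 4 genes of the report that rose in both sexes and stand for its gene groups: feedback (*Socs3*), acute phase (*Itih4*), endothelial adhesion (*Icam1*) and complement (*C7*). They are read 5′ to 3′ along the gene's strand, with the repeat in capitals, from chr11:117969482-117969550 (minus strand), chr14:30886395-30886463 (plus), chr9:21015868-21015936 (plus) and chr15:5063899-5063967 (minus).
Socs3: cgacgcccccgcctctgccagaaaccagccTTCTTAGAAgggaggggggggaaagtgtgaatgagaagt
Itih4: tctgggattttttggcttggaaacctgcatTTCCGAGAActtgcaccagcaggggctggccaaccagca
Icam1: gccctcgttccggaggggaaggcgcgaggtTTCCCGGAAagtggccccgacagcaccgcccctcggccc
C7: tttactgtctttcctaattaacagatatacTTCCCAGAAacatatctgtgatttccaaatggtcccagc
The repeat begins 154, 51, 42 and 164 bases before the start of *Socs3*, *Itih4*, *Icam1* and *C7*.

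Secreted acute phase proteins, known as products of the liver under interleukin 6 family cytokines, held several of the largest rises. Of 16 such genes tested in males and 17 in females, 11 and 11 rose, 10 of 16 in both, and none fell (median 2.04 and 2.74, or 2.94 and 3.22 with genes at the detection floor at their bound). *Serpina3n*, a serine protease inhibitor, was at 3.71, 2.39 and 4.17 CPM in control males and at 1297, 1458, 1246 and 1060.3 CPM at 3 weeks (8.35 ± 0.33, adjusted p = 9.28e-13). The female controls had 1.46, 2.37, 3.15 and 2.38 CPM and the 3-week females 1402, 1192, 1681 and 1562 CPM (9.03 ± 0.38, adjusted p = 6.07e-13). The lowest 3-week male library thus held 1060.3 CPM where the highest control male held 4.17 CPM. Serpina3 genes are near-identical copies, so reads may be split among them. *Hp*, which encodes the haemoglobin-binding protein haptoglobin, rose from 0.375, 0.265 and 0.195 to 175, 126, 129.9 and 85.7 CPM in males (7.34 ± 0.30, adjusted p = 1.05e-12) and from 0.560, 0.339, 0.3002 and 0.222 to 70.1, 74.5, 88.6 and 82.3 CPM in females (6.55 ± 0.29, adjusted p = 1.1e-12). *Lbp*, the lipopolysaccharide-binding protein (4.52 ± 0.23 and 4.08 ± 0.25), *Itih4*, which encodes a hyaluronan-associated plasma protein (4.51 ± 0.36 and 4.59 ± 0.39), and *Lcn2*, the iron-scavenging lipocalin (3.75 ± 0.26 and 3.22 ± 0.74), followed. *Saa3*, a serum amyloid, was at 0, 0 and 0.0488 CPM in control males and 5.71, 3.62, 2.33 and 1.58 CPM at 3 weeks, at least 29.1-fold higher, and at least 18.9-fold higher in females. The fibrinogen chain *Fga* (0.04 ± 0.42 and 0.51 ± 0.58) and haemopexin, *Hpx* (0.16 ± 0.51 and 0.79 ± 0.60), passed the test in neither sex.

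Complement, the cascade of serum proteases that tags its targets, rose almost throughout. Of 22 genes tested, 19 rose in males, 20 in females and 19 in both, none fell, and the median log2 fold change was 2.40 and 2.38. *C3*, the hub of the cascade, went from 72.8, 71.7 and 94.8 CPM to 1979, 1662, 1953 and 1752 CPM in males (4.52 ± 0.20, adjusted p = 2.5e-12) and from 43.7, 47.6, 61.8 and 40.3 CPM to 1821, 1208, 1766 and 1913 CPM in females (5.10 ± 0.21, adjusted p = 3.6e-13). The classical pathway components *C1qa* (2.07 ± 0.18 and 2.33 ± 0.14), *C1ra* (3.17 ± 0.17 and 3.10 ± 0.15) and *C4b* (6.06 ± 0.20 and 6.07 ± 0.16), the alternative pathway's *Cfb* (3.375 ± 0.28 and 2.83 ± 0.23), and the terminal components *C6* (3.45 ± 0.32 and 3.10 ± 0.22) and *C7* (2.697 ± 0.24 and 2.43 ± 0.24) all rose in both sexes. Reads of *C4b* may be shared with its near-identical neighbour *C4a*. Regulators rose beside the effectors: *Cfi*, the protease that inactivates C3b, stood at 0.112, 0.151 and 0.0326 CPM in control and 31.5, 39.4, 30.04 and 23.6 CPM in 3-week males (5.70 ± 0.34), and was at least 255-fold higher in females. *Serping1*, the C1 inhibitor, rose as well (2.61 ± 0.22 and 2.48 ± 0.13). *Cd59a*, the membrane-bound inhibitor of the terminal complex, was at -0.16 ± 0.12 and -0.21 ± 0.09 and did not pass (adjusted p = 0.376 and 0.0803).

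Chemokines and interleukins rose selectively. Among chemokines 14 of 20 rose in males and 18 of 21 in females, 14 of 19 in both. *Cxcl13*, the B cell attractant, had no read in any control male (0, 0 and 0 CPM) and stood at 29.4, 26.1, 26.2 and 29.2 CPM in the 3-week males, at least 244-fold higher, and it went from 0, 0.0484, 0 and 0.0554 CPM to 39.8, 33.3, 65.4 and 43.2 CPM in females, at least 273-fold. *Ccl8*, a monocyte attractant, rose from 0.1499, 0.0757 and 0.244 to 49.1, 23.3, 16.7 and 16.4 CPM in males (5.21 ± 0.36, adjusted p = 2.27e-09) and from 0.215, 0, 0.1501 and 0.222 to 25.6, 21.9, 35.3 and 22.2 CPM in females (5.36 ± 0.29, adjusted p = 1.63e-11). *Ccl19*, which guides CCR7-positive cells (3.82 ± 0.31 and 4.30 ± 0.40), *Cxcl14* (3.94 ± 0.23 and 3.71 ± 0.34) and *Ccl7* (2.73 ± 0.40 and 3.32 ± 0.38) behaved alike in direction. By contrast the neutrophil attractant *Cxcl1* passed in neither sex (-0.16 ± 0.30 and 0.32 ± 0.25), and *Cxcl9*, an interferon gamma target, fell in females (-1.13 ± 0.22, adjusted p = 0.000628). In males *Cxcl9* was at 6.75, 5.42 and 8.39 CPM in controls and 18.4, 2.97, 0.723 and 1.51 CPM at 3 weeks, with replicate 1 alone above the controls (-1.02 ± 0.57, adjusted p = 0.226).

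Of 17 interleukins, TNF family genes and receptors, 13 rose in males and 15 in females, 13 in both, and 1, *Il34*, a ligand of the CSF1 receptor, fell in females (-0.46 ± 0.16, adjusted p = 0.0306), a call lost without 3-week replicate 2 or 4 or any 1 control (adjusted p = 0.0513 to 0.0874). *Il33*, an alarmin of stromal and endothelial nuclei, moved most: control males had 0.412, 1.48 and 2.87 CPM and 3-week males 123, 157, 136 and 158 CPM (6.30 ± 0.41, adjusted p = 1.19e-09). Control females had 3.49, 3.24, 1.90 and 2.49 CPM and 3-week females 212, 193, 302 and 245 CPM (6.19 ± 0.36, adjusted p = 5.15e-11). *Tnfsf11*, which encodes RANK ligand, had 0, 0 and 0 CPM in control males and 10.53, 8.90, 8.28 and 6.51 CPM at 3 weeks, at least 75.3-fold higher, and at least 48.5-fold in females. *Csf2rb*, the shared receptor chain for GM-CSF, IL3 and IL5 (3.90 ± 0.21 and 4.60 ± 0.23), and *Il1r1*, the IL1 receptor (2.22 ± 0.19 and 2.21 ± 0.17), rose too. *Il6* itself stayed low, at 0.578, 2.32, 0.559 and 0.515 CPM in 3-week males and 0.818, 2.01, 1.41 and 0.735 CPM in 3-week females, though above controls (at least 8.74-fold and 7.48-fold). The male call on *Il6* was lost without 3-week replicate 2 or any 1 control (adjusted p = 0.0764 to 0.116).

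Macrophage genes rose in both sexes. Of 19 markers tested, 16 rose in males, 18 in females and 16 in both, against the 11.3% of all genes. No 3-week library overlapped the controls in their summed level, which was 186 to 319 CPM in control males and 684 to 887 CPM in 3-week males and 197 to 233 CPM in control females and 732 to 941 CPM in 3-week females. *Ccr2*, the receptor that marks recruited monocytes, went from 0.637, 1.40 and 2.54 to 10.99, 12.5, 16.9 and 16.5 CPM in males (2.95 ± 0.29, adjusted p = 2.8e-07) and from 1.21, 0.968, 0.901 and 0.665 to 18.8, 11.4, 15.4 and 17.6 CPM in females (3.497 ± 0.22, adjusted p = 2.01e-10). General markers such as *Cd68* (1.64 ± 0.23 and 1.87 ± 0.15) and *Csf1r* (1.51 ± 0.19 and 2.01 ± 0.14) rose together with *Lyve1* (1.205 ± 0.27 and 0.88 ± 0.19), a marker of resident macrophages that lymphatic endothelium carries as well. *Arg1* was barely detected and did not pass in either sex (0.29 ± 0.26 and 0.41 ± 0.23). Many chemokine, complement and interleukin genes above are also made by macrophages, and the part of the macrophage rise in those results was not tested.

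The machinery of MHC class II presentation rose with them. All 10 genes tested rose in females and 9 in males (medians 2.47 and 1.81). *H2-Eb1*, a class II beta chain, stood at 30.2, 30.8 and 49.1 CPM in control males and 381, 129, 185 and 200.4 CPM at 3 weeks (2.51 ± 0.25, adjusted p = 3.25e-07), where replicate 1 was the highest. In females it went from 24.97, 24.3, 22.4 and 24.7 to 265, 216, 317 and 241 CPM (3.39 ± 0.23, adjusted p = 5.87e-10). *Ciita*, the master regulator of class II genes, rose from 1.91, 3.18 and 4.10 to 10.4, 6.00, 6.24 and 8.91 CPM in males (1.25 ± 0.21, adjusted p = 0.000241) and from 1.12, 0.919, 1.201 and 0.998 to 9.56, 5.02, 9.91 and 8.79 CPM in females (2.46 ± 0.20, adjusted p = 9.7e-09). Some class II genes of the locus are close in sequence, so reads of those genes may be shared. The male count of 9 with replicate 1 of the 3-week males left out was 8.

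Lymphocyte and neutrophil markers changed less evenly. The shares that rose in both sexes were 14.3% for T and NK cell markers and 12.5% for B and plasma cell markers. Both were close to the 11.3% of all genes. Of the T and NK cell markers, *Cd4*, which macrophages of some tissues also carry, was the only 1 of 7 to rise in males (1.79 ± 0.29), and 4 of 10 rose in females, which became 1 without 3-week replicate 3 and 2 without control replicate 2. Without 3-week male replicate 3 or control male replicate 4 the male count was 2. The T cell receptor subunit *Cd3g* was at 0.38 ± 0.25 and 0.44 ± 0.23 and did not pass. Among B and plasma cell markers, 1 of 8 rose in males (*Ighm*, 1.22 ± 0.31, adjusted p = 0.00709, or 0.0608 without control replicate 1). In females 5 of 10 rose and 1 fell, and the count that rose was 2 without 3-week replicate 3 and 3 without control replicate 4. Of 4 neutrophil markers tested, 2 rose in both sexes, *Csf3r*, the G-CSF receptor gene (1.27 ± 0.21 and 1.53 ± 0.25), and *Mmp8*, the neutrophil collagenase (0.83 ± 0.25 and 0.90 ± 0.24), the latter in males not without 3-week replicate 2 or 3 or control replicate 1 or 3 (adjusted p = 0.0517 to 0.0852). The calprotectin gene *S100a8* was at -0.47 ± 0.28 and -0.42 ± 0.27 and passed in neither. Its partner *S100a9* fell in males (-0.72 ± 0.25, adjusted p = 0.0461), a call lost without 3-week replicate 1, 3 or 4 or control replicate 3 or 4 (adjusted p = 0.0887 to 0.165).

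Interferon-induced genes changed little as a group. Among 24 interferon-induced genes, 4 rose and 1 fell in males, 7 rose and 3 fell in females, and the medians were 0.26 and 0.27. *Mx1* (1.70 ± 0.22 and 1.32 ± 0.26) and *Ifi27l2a* (1.597 ± 0.30 and 0.78 ± 0.18) rose in both sexes. *Rsad2*, the antiviral enzyme viperin, fell, from 33.2, 25.3 and 39.3 to 17.5, 9.99, 10.02 and 12.7 CPM in males (-1.36 ± 0.28, adjusted p = 0.00121) and from 27.99, 24.3, 23.3 and 21.2 to 8.33, 7.52, 7.37 and 7.61 CPM in females (-1.58 ± 0.14, adjusted p = 3.36e-08). *Ifit1* (0.06 ± 0.24 and -0.12 ± 0.14) and *Isg15* (0.09 ± 0.31 and 0.35 ± 0.18) passed in neither. Replicate 1 of the 3-week males stood out here: *Igtp*, an interferon gamma-inducible GTPase, was at 198, 17.7, 15.5 and 21.3 CPM in the 3-week males against 20.6, 13.7 and 22.7 CPM in the controls (0.81 ± 0.54, adjusted p = 0.322). Without that library 3 of these genes rose in males and 2 fell, and without control male replicate 3 the count that rose was 2.

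**Figure D3:**
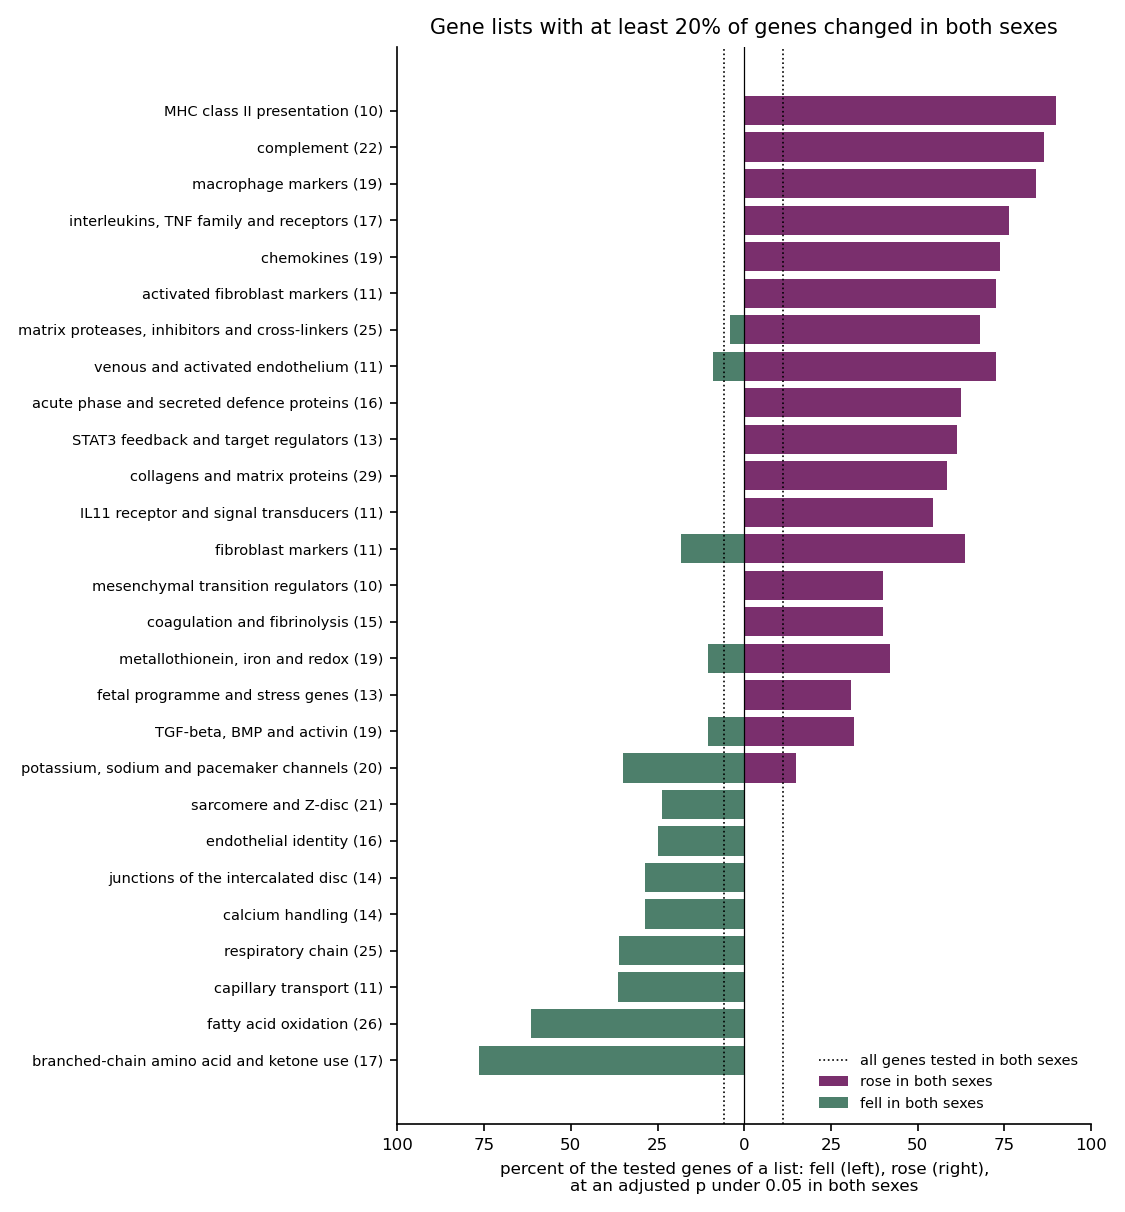
Share of each gene list that rose (right, purple) or fell (left, green) in both sexes at an adjusted p under 0.05, with the number of genes tested in both sexes in brackets. Dotted lines mark the shares of all 16625 genes, 11.3% up and 5.91% down; only lists of 8 or more genes with at least 20% of genes changed are drawn.

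Matrix genes rose in both sexes. Of 29 collagens and matrix proteins, 19 rose in males, 18 in females and 17 in both, and none fell (medians 1.03 and 1.25). *Col3a1*, the fibrillar collagen of young scar and vessel walls, went from 179.5, 184 and 382 to 4121, 3976, 3232 and 2654 CPM in males (3.88 ± 0.26, adjusted p = 1.35e-09) and from 283, 214, 299 and 288 to 4158, 2775, 3855 and 4284 CPM in females (3.79 ± 0.20, adjusted p = 1.64e-11). Control male replicate 4 was the highest control, and still below every 3-week male. *Col1a1* (2.86 ± 0.27 and 2.73 ± 0.25), *Fn1*, which encodes fibronectin (3.46 ± 0.30 and 3.56 ± 0.27), and *Col14a1*, a fibril-associated collagen (3.47 ± 0.25 and 3.05 ± 0.18), also rose in both. *Comp*, a cartilage matrix protein that assembles collagen fibrils, rose from 1.499, 0.757 and 1.22 to 95.6, 104, 77.0 and 72.7 CPM in males (5.74 ± 0.27) and from 1.46, 1.74, 0.7505 and 1.55 to 95.8, 87.4, 133 and 115 CPM in females (5.87 ± 0.41). The matrix did not move as 1 block: the collagen VI chains *Col6a1* (0.23 ± 0.15 and 0.23 ± 0.15) and *Col6a2* (0.19 ± 0.15 and 0.06 ± 0.18) and the basement membrane collagen *Col15a1* (-0.11 ± 0.20 and -0.31 ± 0.19) passed in neither sex. *Ccn2*, the connective tissue growth factor and a usual TGFβ target, was at -0.64 ± 0.45 and -0.85 ± 0.43 and did not pass (adjusted p = 0.354 and 0.14).

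Enzymes that remodel and cross-link matrix rose beside it. Of 25 proteases, inhibitors and cross-linkers tested in both sexes, 17 rose in both and 1 fell in both. *Mmp3*, stromelysin 1, was at 2.06, 0.795 and 1.42 CPM in control males and 188, 188, 168 and 179.9 CPM at 3 weeks (6.61 ± 0.26, adjusted p = 9.28e-13), and at 0.603, 1.02, 1.501 and 1.44 CPM in control and 193, 188, 200.7 and 184 CPM in 3-week females (6.91 ± 0.41, adjusted p = 6.71e-11). In each sex the 3-week hearts lay within a narrow band, though their controls were close to silent. *Lox*, the collagen cross-linking oxidase (3.61 ± 0.29 and 4.11 ± 0.29), and *Mmp9*, gelatinase B (4.10 ± 0.31 and 4.10 ± 0.31), rose as well. The protease inhibitors parted ways. *Timp1* rose from 1.65, 0.606 and 2.02 to 38.2, 40.9, 21.6 and 19.2 CPM in males (3.99 ± 0.35) and by 4.17 ± 0.44 in females, whereas *Timp4*, the inhibitor known to be abundant in heart, fell from 58.8, 39.8 and 37.1 to 15.3, 6.00, 17.4 and 12.99 CPM in males (-1.84 ± 0.45, adjusted p = 0.00524). In females *Timp4* fell from 68.4, 60.9, 46.3 and 48.1 to 5.02, 8.32, 4.23 and 6.73 CPM (-3.12 ± 0.25, adjusted p = 5.44e-09), which put it first among the non-overlapping falls of that sex.

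Fibroblast genes rose in part. Of 11 fibroblast markers 7 rose and 2 fell in both sexes, and of 11 markers of activated fibroblasts 8 rose and none fell, with the lists sharing matrix genes named above. *Pi16* (2.68 ± 0.20 and 2.90 ± 0.16) and *Dpt* (2.03 ± 0.17 and 2.14 ± 0.16), markers of adventitial fibroblasts, rose. *Gsn*, the actin-severing gelsolin that resting cardiac fibroblasts carry at a high level, fell from 895, 814 and 862 to 288, 264, 358 and 392 CPM in males (-1.41 ± 0.20, adjusted p = 2.49e-05) and from 1171, 1165, 1245 and 1194 to 288, 341, 305 and 286 CPM in females (-1.97 ± 0.16, adjusted p = 5.89e-09). *Pdgfra*, which marks fibroblasts broadly, rose only slightly (0.50 ± 0.15 and 0.48 ± 0.15), a call lost in males without 3-week replicate 2 or 4 or control replicate 1 (adjusted p = 0.0511 to 0.172) and in females without 3-week replicate 1 (0.0609). *Tcf21*, another broad marker, did not pass (0.46 ± 0.18 and 0.32 ± 0.14). *Acta2*, the smooth muscle actin of myofibroblasts and vessels, stood at 178, 79.7 and 217 CPM in control males and 102, 143, 119 and 127 CPM at 3 weeks, overlapping groups with no call in either sex (-0.26 ± 0.31 and -0.30 ± 0.32, adjusted p = 0.625 and 0.504). *Thy1* (1.73 ± 0.22 and 1.67 ± 0.12) and *Cthrc1*, a marker of scar-forming fibroblasts (1.93 ± 0.40 and 2.58 ± 0.36), did rise.

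Among 19 TGFβ, BMP and activin genes tested in both sexes, 6 rose and 2 fell in both. The ligand gene *Tgfb1* was at 0.17 ± 0.16 and 0.08 ± 0.11 and did not pass (adjusted p = 0.527 and 0.606). Its receptor gene *Tgfbr2* rose from 38.8, 45.6 and 56.9 to 216, 199, 187 and 199.9 CPM in males (2.09 ± 0.13, adjusted p = 4.4e-10) and from 41.0, 39.1, 50.3 and 38.2 to 189, 154, 186 and 195 CPM in females (2.09 ± 0.16, adjusted p = 2.96e-09). *Inhbb*, an activin subunit, rose (2.54 ± 0.23 and 3.16 ± 0.27), and *Bmp6*, a BMP ligand of endothelium, fell (-0.66 ± 0.14 and -0.48 ± 0.14), in females not without 3-week replicate 2 (adjusted p = 0.0565). Of 10 regulators of mesenchymal transition, *Snai1*, the Snail repressor (2.34 ± 0.28 and 2.27 ± 0.23), *Vim* (0.97 ± 0.16 and 0.95 ± 0.16), *S100a4* (1.16 ± 0.26 and 1.26 ± 0.20) and *Zeb2* (0.52 ± 0.17 and 0.98 ± 0.13) rose in both sexes, while *Snai2* (0.07 ± 0.19 and 0.01 ± 0.19) and *Zeb1* (-0.18 ± 0.11 and -0.18 ± 0.11) passed in neither. The male rise of *Zeb2* was lost without 3-week replicate 2 or 4 or control replicate 1 (adjusted p = 0.104 to 0.227).

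Among genes linked to the endothelium, most adhesion genes rose, and part of the identity and capillary genes fell. Which cells of the tissue these changes came from was not tested. Of 11 venous and activation genes, 8 rose in both sexes and 1, *Icam2* (-0.55 ± 0.17 and -0.45 ± 0.11), fell. The male fall of *Icam2* was lost without 3-week replicate 2 or 4 or control replicate 1 or 4 (adjusted p = 0.0525 to 0.0983). *Selp*, the P-selectin that captures rolling leukocytes, went from 0.187, 0.492 and 0.423 to 8.21, 12.4, 7.23 and 9.05 CPM in males (3.48 ± 0.31, adjusted p = 8.3e-08) and from 0.215, 0.0968, 0.350 and 0.222 to 19.6, 14.3, 16.8 and 16.7 CPM in females (4.59 ± 0.39, adjusted p = 1.2e-08). *Plvap*, the protein of fenestral diaphragms (3.04 ± 0.27 and 2.82 ± 0.23), *Vcam1* (2.39 ± 0.18 and 2.04 ± 0.23), *Icam1* (1.42 ± 0.17 and 1.38 ± 0.12) and *Ackr1*, a marker of venules (2.63 ± 0.21 and 2.65 ± 0.27), rose with it. Of 16 endothelial identity genes, none rose, 4 fell in males and 10 in females, though the male count was 1 without control replicate 4. *Kdr*, the VEGF receptor 2 gene, stood at 154, 194 and 221 CPM in control and 122, 136, 84.4 and 83.9 CPM in 3-week males (-0.85 ± 0.22, adjusted p = 0.00901, or 0.0521 without control replicate 4) and at 142, 124, 190.4 and 159 CPM in control and 86.5, 64.5, 67.7 and 71.7 CPM in 3-week females (-1.07 ± 0.19, adjusted p = 0.000156). *Pecam1*, the general endothelial marker, did not pass in either sex (-0.12 ± 0.14 and -0.28 ± 0.12, adjusted p = 0.622 and 0.0769).

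Genes that serve transport across capillaries fell. Of 11 tested, 5 fell in males (3 without control male replicate 1) and 8 in females, with medians of -0.62 and -0.996. *Car4*, the carbonic anhydrase on the luminal face of capillaries, went from 29.1, 26.7 and 36.2 to 10.99, 6.82, 7.43 and 9.35 CPM in males (-1.78 ± 0.19, adjusted p = 9.02e-07) and from 33.7, 31.8, 24.6 and 25.2 to 6.99, 5.97, 4.23 and 4.88 CPM in females (-2.29 ± 0.15, adjusted p = 4.17e-10). *Gpihbp1*, which carries lipoprotein lipase across the capillary wall, fell by 0.70 in males and 1.30 in females on the log2 scale (adjusted p = 0.00577 and 4.5e-09). Lipoprotein lipase itself, *Lpl*, was at -0.15 ± 0.15 and -0.23 ± 0.14 and did not pass. Of 11 markers of pericytes and smooth muscle, *Rgs5* fell in both sexes (-0.74 ± 0.15 and -0.87 ± 0.11), and none rose in both.

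Cardiomyocyte genes changed in part, and the sarcomere genes that fell did so mostly by less than 2-fold. Of 21 sarcomere and Z-disc genes none rose, and 7 fell in males and 7 in females, 5 in both (23.8%, against 5.91% of all genes). The male count was 4 without 3-week male replicate 2 and 3 without control male replicate 3, and the female count was 12 with only the control and 3-week libraries in the fit and 15 with library weights. *Mylk4*, a myosin light chain kinase of heart muscle, fell furthest, from 156, 220.1 and 198 to 17.8, 14.5, 26.4 and 29.4 CPM in males (-3.13 ± 0.28, adjusted p = 9.39e-08) and from 245, 253, 178 and 177 to 24.1, 20.9, 22.5 and 36.9 CPM in females (-3.02 ± 0.51, adjusted p = 0.000116). The highest 3-week heart was below every control of its sex. *Myom2*, an M-band protein (-1.25 ± 0.22 and -0.74 ± 0.20), and *Myoz2*, a Z-disc binder of calcineurin (-0.87 ± 0.14 and -0.76 ± 0.11), fell in both sexes. The main contractile genes *Myh6* (-0.49 ± 0.30 and -0.04 ± 0.26), *Tnnt2* (0.21 ± 0.42 and 0.57 ± 0.36) and *Actc1* (-0.17 ± 0.19 and -0.39 ± 0.18) passed in neither. *Tnnt2*, cardiac troponin T, was uneven among the 3-week males, at 2357, 6579, 5982 and 6035 CPM, with replicate 1 far below the rest.

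Stress genes of the heart moved unevenly. Of 13 genes of the fetal and stress programme, 5 rose in males, 5 in females and 4 in both, and 1, *Csrp3*, a Z-disc LIM protein, fell in females (-0.59 ± 0.14, adjusted p = 0.00212). Without 3-week female replicate 2 the female count that fell was 2. *Ankrd1*, a stretch-sensing titin binder, rose from 683, 557 and 725 to 2541, 3231, 2149 and 1919.7 CPM in males (1.89 ± 0.35, adjusted p = 0.000538) and from 399, 371, 258 and 360.4 to 2040.3, 1909.9, 1781 and 1528 CPM in females (2.40 ± 0.47, adjusted p = 0.000559). *Nppa*, the atrial natriuretic peptide gene, rose in males from 60.0, 14.7 and 34.01 to 99.6, 208, 141 and 63.6 CPM (1.89 ± 0.56, adjusted p = 0.0206), a call lost without 3-week replicate 2 (adjusted p = 0.0684) or control replicate 3 (0.16). In females *Nppa* was at 34.3, 60.6, 55.3 and 74.4 CPM in controls and 38.9, 100.1, 113 and 125 CPM at 3 weeks and did not pass (0.67 ± 0.59, adjusted p = 0.421). *Nppa* is also an atrial marker, and of 5 atrial markers tested in both sexes 2 rose in males, *Nppa* and *Dkk3*, and 1, *Dkk3*, in females. The median log2 fold change of the atrial list was below 0, at -0.29 over 5 genes in males and -0.14 over 6 in females. *Dkk3*, a secreted Dickkopf family protein, changed by 2.07 ± 0.24 in males (adjusted p = 3.5e-06) and 1.76 ± 0.55 in females (adjusted p = 0.0196), the female call being lost without 3-week replicate 3 or 4 or control replicate 3 (adjusted p = 0.0531 to 0.0593). The summed atrial level, which includes *Nppa*, was 34.3 to 86.5 CPM in control males and 87.1 to 228 CPM in 3-week males and 59.6 to 99.3 CPM in control females and 64.5 to 153 CPM in 3-week females, with groups apart in males and overlapping in females. *Myl4*, the atrial light chain, was low in males, at 1.65, 1.33 and 1.40 CPM in controls and 1.12, 1.09, 1.22 and 0.957 CPM at 3 weeks. The part of atrial tissue in the *Nppa* values was not tested. The fetal genes *Myh7* (0.16 ± 0.25 and 0.50 ± 0.28) and *Acta1* (-0.14 ± 0.60 and -1.19 ± 0.56) passed in neither sex. Among the genes that rose in both were the metallothionein *Mt2*, a metal buffer (3.57 ± 0.41 and 3.03 ± 0.45), its relative *Mt1* (1.80 ± 0.22 and 1.05 ± 0.24), and *Actn1*, an actin cross-linker of non-muscle cells (1.04 ± 0.15 and 0.93 ± 0.19).

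Ion channel genes fell more often than they rose. Of 20 potassium, sodium and pacemaker channel genes, 12 fell and 3 rose in males, 8 fell and 3 rose in females, and 7 fell in both. With only the control and 3-week libraries in the fit, 13 fell in females. *Kcnip2*, the subunit that sets the transient outward current, went from 168, 189.5 and 172 to 74.8, 54.1, 52.5 and 52.0 CPM in males (-1.61 ± 0.16, adjusted p = 4.17e-07) and from 171, 202, 177 and 172 to 56.5, 67.3, 50.2 and 56.1 CPM in females (-1.65 ± 0.27, adjusted p = 7.42e-05). *Hcn2*, a pacemaker channel gene, fell as well (-1.90 ± 0.20 and -1.54 ± 0.22, adjusted p = 9.84e-07 and 1.46e-05). Of 14 calcium handling genes 4 fell in both sexes and none rose, among them *Ryr2*, the release channel (-0.77 ± 0.19 and -0.55 ± 0.16), and *Cacna2d1*, a subunit of the calcium entry channel (-0.78 ± 0.14 and -0.54 ± 0.13). Without 3-week female replicate 3 the female fall of *Ryr2* had an adjusted p of 0.0566. The male count of 5 fell to 3 without 3-week male replicate 1, replicate 4, control replicate 1 or control replicate 3, and the female count of 7 to 4 without 3-week female replicate 3, and the female count was 11 with only the control and 3-week libraries in the fit. The calcium pump *Atp2a2* (-0.19 ± 0.22 and -0.30 ± 0.16) and its inhibitor *Pln* (-0.18 ± 0.18 and -0.27 ± 0.14) did not pass, but *Strit1*, which encodes the pump activator DWORF, fell in both sexes (-1.52 ± 0.29 and -2.70 ± 0.23, adjusted p = 0.000802 and 1.19e-08).

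**Figure D4:**
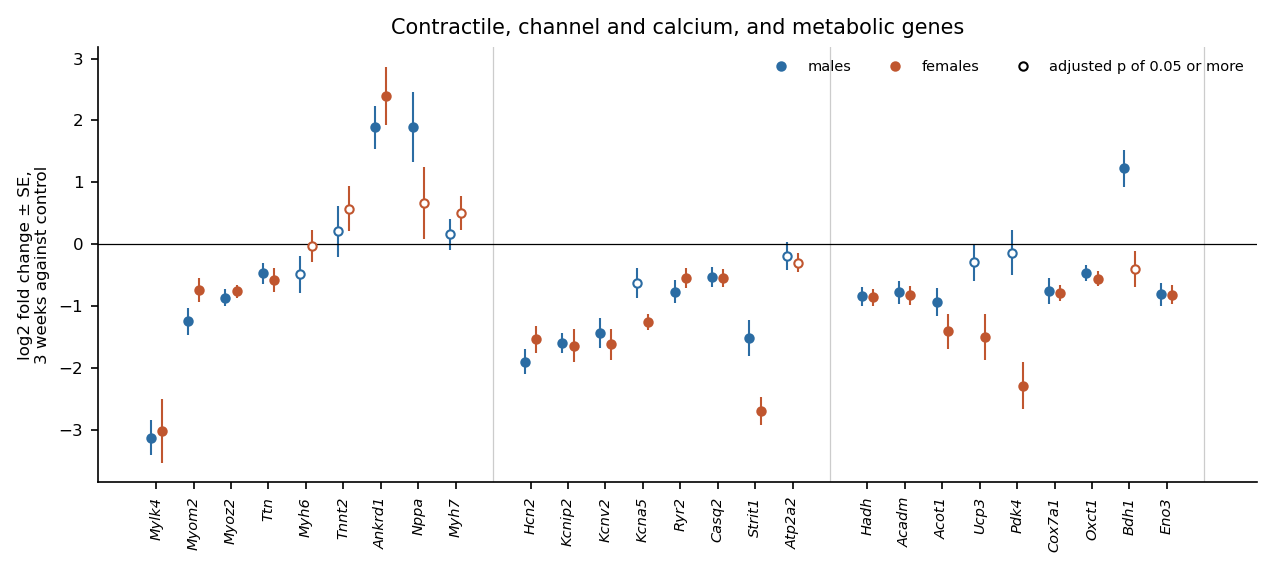
Log2 fold change at 3 weeks against control with its SE for contractile and stress genes (left), channel and calcium genes (middle) and metabolic genes (right), in males (blue) and females (orange); open circles mark an adjusted p of 0.05 or more. *Mylk4*, *Hcn2*, *Kcnip2* and *Hadh* lie below 0 in both sexes, *Ankrd1* above it, and the male and female values part for *Pdk4* (-0.14 and -2.29) and *Bdh1* (1.22 and -0.41).

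Genes for burning fatty acids, the main fuel of the adult heart, fell widely. Of 26 tested, 16 fell in males and 25 in females, 16 in both, and none rose (medians -0.52 and -0.75, against the 5.91% of all genes that fell in both). *Hadh*, the short-chain dehydrogenase of β-oxidation, went from 416, 489 and 424 to 259, 219, 242 and 266 CPM in males (-0.85 ± 0.15, adjusted p = 0.000308) and from 438, 402, 436 and 392 to 227, 230.4, 233 and 225 CPM in females (-0.86 ± 0.14, adjusted p = 7.01e-05). The fall was below 2-fold, yet no 3-week heart reached the control range of its sex. *Acadm*, the medium-chain dehydrogenase, fell by 0.78 in males and 0.83 in females on the log2 scale. Respiratory chain genes of the nucleus fell in 9 of 25 cases in males and 23 in females. The male count was 5 without 3-week replicate 2, 1 without control replicate 1 and 3 without control replicate 3, and it was 16 with only the control and 3-week libraries in the fit. The 13 protein-coding genes of the mitochondrial genome all fell in females (median -0.78), and 1 fell in males (median -0.63), or 8 with only the control and 3-week libraries in the fit and 0 without any 1 male library other than 3-week replicate 2. Branched-chain amino acid and ketone use fell in 13 of 17 genes in both sexes, for example *Acat1*, the mitochondrial thiolase (-0.55 ± 0.11 and -0.64 ± 0.12), and the male count of 13 became 8 without control replicate 3. Of the glycolysis genes tested in both sexes, 4 rose and 4 fell in both, with *Eno3*, the muscle enolase, lower (-0.81 ± 0.19 and -0.82 ± 0.15) and *Pfkfb3*, the activator of phosphofructokinase, higher (0.96 ± 0.25 and 1.14 ± 0.25) in both sexes. Without control male replicate 1 the male rise of *Pfkfb3* had an adjusted p of 0.0517.

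Metallothionein, iron and redox genes, taken as 1 list, were split. Of 19 tested in both sexes, 8 rose and 2 fell in both. *Ftl1*, the ferritin light chain (0.86 ± 0.13 and 0.83 ± 0.13), *Hmox1*, haem oxygenase 1 (1.44 ± 0.22 and 1.30 ± 0.25), and the secreted antioxidants *Gpx3* (2.19 ± 0.19 and 1.89 ± 0.15) and *Sod3* (1.34 ± 0.27 and 1.27 ± 0.17) rose. *Sod2*, the mitochondrial superoxide dismutase, fell (-0.50 ± 0.10 and -0.54 ± 0.09). So did *Slc40a1*, the iron exporter ferroportin (-0.79 ± 0.17 and -0.62 ± 0.19), whose female call was lost without 3-week replicate 3 or control replicate 1 or 3 (adjusted p = 0.0542 to 0.0713).

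Male and female changes were then tested against each other, in a joint fit in which each sex keeps its own controls. All males were in one table and all females in another. A difference in change between the sexes therefore cannot be told apart from a difference between the tables, here and below. Of 16627 genes, 0 passed in the main limma fit (lowest adjusted p = 0.145), and 691 (4.16%) had an unadjusted p under 0.05. That fit held all assigned libraries of both sexes without weights. With a minimum difference of 2-fold, the same comparison called 0 genes with edgeR and 15 with DESeq2 on the recovered reads. In limma it called 30 with a weight for each library and 6 with only the control and 3-week libraries in the fit. Without control male replicate 1 it called 1 in limma, *Pparg*. The median SE of the difference was 0.234 on the log2 scale, and a missed threshold does not show that the sexes changed alike. Of 648 genes called in 1 sex, 632 had the same sign in the other and 141 had an unadjusted p under 0.05 for the difference. Among the 922 shared calls the change was larger in females for 601, and the median size was 1.56 in males and 1.72 in females.

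The lowest p in the direction of a larger rise in females belonged to *Tlr2*, the receptor for bacterial lipoproteins. It went from 3.26, 3.41 and 3.92 to 7.79, 8.42, 6.08 and 7.77 CPM in males (0.99 ± 0.16) and from 2.33, 2.66, 2.40 and 2.38 to 11.8, 10.1, 12.4 and 12.4 CPM in females (2.05 ± 0.13), a difference of 1.06 ± 0.20 (adjusted p = 0.145). Next came *Zfp30*, a zinc finger gene (-0.34 ± 0.16 in males and 0.58 ± 0.14 in females), *Pou2f2*, the lymphoid factor Oct2 (1.03 ± 0.17 and 2.27 ± 0.21), *Frem2*, a basement membrane protein (-1.23 ± 0.23 and 0.16 ± 0.20), and *Otulinl* (1.21 ± 0.19 and 2.098 ± 0.11). In the other direction *Pparg*, the nuclear receptor of fat storage, was at 11.8, 7.01 and 7.83 CPM in control and 12.6, 8.56, 8.97 and 7.58 CPM in 3-week males (0.09 ± 0.21) and fell from 13.4, 9.39, 14.0 and 14.5 to 5.28, 5.66, 4.55 and 5.73 CPM in females (-1.19 ± 0.15), a difference of -1.28 ± 0.26 (adjusted p = 0.145). *Lipe*, the hormone-sensitive lipase (0.09 ± 0.16 and -0.80 ± 0.10), *Maff*, a small Maf factor (0.61 ± 0.24 and -0.73 ± 0.15), *Cited2*, a CBP-binding regulator (-0.01 ± 0.14 and -1.11 ± 0.18), and *Adamtsl2*, a microfibril-associated protein (-0.14 ± 0.20 and -1.48 ± 0.21), followed. None of these 10 passed the adjusted threshold in the main limma fit. At a minimum difference of 2-fold, DESeq2 called 8 of the 10, all but *Lipe* and *Adamtsl2* (adjusted p = 0.00793 for *Tlr2* to 0.0346 for *Frem2* and *Otulinl*), library weights called 6 (*Tlr2*, *Pou2f2*, *Frem2*, *Pparg*, *Maff* and *Cited2*), and the fit of only the control and 3-week libraries called 2 (*Tlr2* and *Maff*). *Pparg* and *Lipe* also serve fat cells, and of the 8 adipocyte markers checked only *Cidea* was listed, at 26.7, 20.6, 16.9 and 22.1 CPM in control and 20.6, 20.9, 19.6 and 19.3 CPM in 3-week females.

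Some listed genes had an unadjusted p under 0.05 for the difference between the sexes, and none of these passed after adjustment in the main limma fit. In other fits *Ciita* was called with DESeq2 (adjusted p = 0.0221) and with library weights (adjusted p = 0.00713), and *Bdh1* and *Rgcc* with library weights (adjusted p = 0.0164 and 0.0416). *Pdk4*, the kinase that shuts pyruvate dehydrogenase in fasting, was at 216, 513 and 529.8 CPM in control males and 468, 351, 251 and 380.4 CPM in 3-week males (-0.14 ± 0.37, adjusted p = 0.843). It fell from 490.3, 332, 597 and 455 to 242, 63.7, 60.9 and 80.7 CPM in females (-2.29 ± 0.38, adjusted p = 0.000109), with the female groups apart and the male groups overlapping (difference -2.15 ± 0.57, adjusted p = 0.4). *Bdh1*, the ketone dehydrogenase, rose in males from 55.9, 28.5 and 28.8 to 115, 83.9, 68.5 and 75.9 CPM (1.22 ± 0.30, adjusted p = 0.00531). In females *Bdh1* was at 68.2, 56.6, 47.6 and 59.6 CPM in controls and 37.5, 63.0, 37.5 and 39.6 CPM at 3 weeks (-0.41 ± 0.29, adjusted p = 0.319), where only replicate 2 reached the control range (difference -1.63 ± 0.45, adjusted p = 0.443). *Cdkn1a*, the p53 target p21, fell in females from 64.3, 43.4, 89.3 and 85.6 to 20.1, 16.2, 19.1 and 20.2 CPM (-1.82 ± 0.28). In males it was at 46.4, 26.9 and 39.3 CPM in controls and 99.5, 25.7, 31.3 and 22.5 CPM at 3 weeks, replicate 1 being far above the rest (0.00 ± 0.41, difference -1.83 ± 0.52, adjusted p = 0.496). The estimated rise of *Ciita* was larger in females (difference 1.21 ± 0.30, adjusted p = 0.316), and 6 of the 10 class II genes had an unadjusted p under 0.05, all with the larger rise in females. Among endothelial identity genes 6 of 16, and among capillary genes 6 of 11, had such a p, for example *Rgcc*, a cell cycle regulator of capillary endothelium (difference -1.53 ± 0.44, adjusted p = 0.505), and *Nos3*, the endothelial nitric oxide synthase (-0.51 ± 0.17, adjusted p = 0.777). These counts stand beside the 4.16% of all genes.

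**Figure D5:**
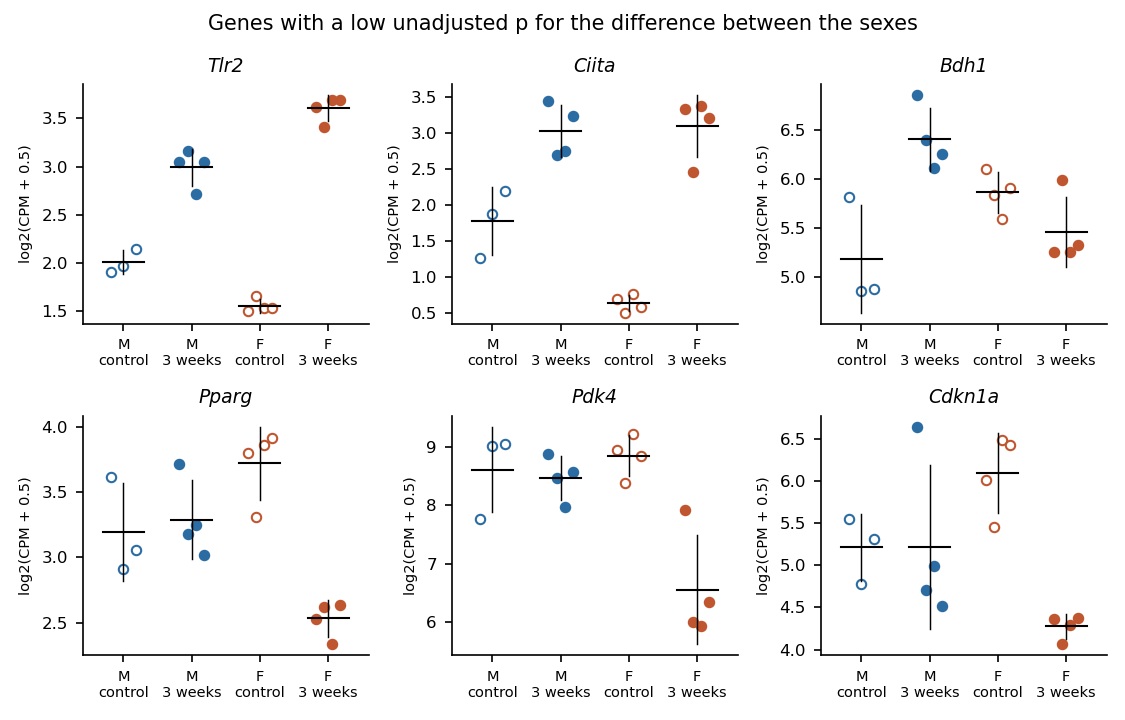
Control (open) and 3-week (filled) libraries of males (M, blue) and females (F, orange) for 6 genes with a low unadjusted p for the difference between the sexes; the vertical axis is log2(CPM + 0.5), horizontal bars are group means and vertical lines 1 SD. *Tlr2* and *Ciita* rise in both sexes, with the larger estimate in females, *Bdh1* rises in males, and *Pparg*, *Pdk4* and *Cdkn1a* fall in females. None passed the adjusted threshold for a difference in the main limma fit. *Tlr2*, *Pparg* and *Ciita* were called with DESeq2, and these and *Bdh1* in limma with library weights.

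Other cell types that a heart sample can hold were checked by their markers. The summed level of 6 mesothelial markers was 6.86 to 8.22 CPM in control males and 5.78 to 24.7 CPM in 3-week males and 5.71 to 11.2 CPM in control females and 6.46 to 72.9 CPM in 3-week females. Of these 6 none passed in males and 5 rose in females, which became 1 without 3-week female replicate 3 and 2 without replicate 4. *Msln*, mesothelin, was at 0.258, 0.145, 0.450 and 0.0554 CPM in control and 2.79, 0.608, 18.9 and 10.9 CPM in 3-week females, and at 0.0375, 0.909 and 0.879 CPM in control and 0.193, 4.40, 4.90 and 0.110 CPM in 3-week males. The level thus varied widely among hearts of 1 group. Of 4 skeletal muscle markers tested, 1 rose in both sexes, *Pvalb*, the calcium buffer parvalbumin (1.09 ± 0.26 and 2.18 ± 0.38), and their summed level was 2.04 to 3.19 CPM in control males and 1.81 to 2.97 CPM in 3-week males and 1.85 to 3.23 CPM in control females and 3.73 to 11.4 CPM in 3-week females, with groups apart in females and overlapping in males. Of 6 Schwann cell and neuronal markers tested in both sexes, 1 rose, *Scn7a*, a channel of glial cells (0.89 ± 0.16 and 1.09 ± 0.14), and 1 fell, *Dbh*, the enzyme that makes noradrenaline (-2.04 ± 0.22 and -1.58 ± 0.27). Their summed level was 24.3 to 34.1 CPM in control males and 33.3 to 45.4 CPM in 3-week males and 27.7 to 32.7 CPM in control females and 41.0 to 55.7 CPM in 3-week females, again apart in females and overlapping in males. Of the erythroid markers (6 in males and 7 in females) and the 16 circadian clock genes, none passed in either sex in the main limma fit. There an unadjusted p was under 0.05 for 0 and 0 erythroid and 1 and 3 clock genes in males and females. On the recovered reads edgeR and DESeq2 gave 0 erythroid genes in either sex and 0 clock genes in males, and 2 and 3 clock genes that fell in females. Of the cell cycle genes, none of 27 rose and 1 fell in males, and 3 of 28 rose and 3 fell in females. The female count that rose was 7 without 3-week female replicate 2 and 12 with library weights, and the male count was 1 or 2 without 3-week replicate 3 or 4 and 1 without control replicate 4. *Cdkn1c*, the cell cycle inhibitor p57, fell in both sexes (-1.13 ± 0.19 and -1.24 ± 0.16, adjusted p = 0.000173 and 6.13e-06). The summed cell cycle level was 271 to 326 CPM in control males and 244 to 326 CPM in 3-week males, with overlapping groups. In females it was 307 to 359 CPM in controls and 250.5 to 273 CPM at 3 weeks, with groups apart. The median log2 fold change of the list was -0.02 in males and 0.34 in females. In females the sum and the median thus went in opposite directions, and the lower sum does not describe the list as a whole.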

How the data were processed

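Per the labels and the methods, polyadenylated heart RNA was made into directional libraries and sequenced in pairs. The authors aligned the reads with STAR to GRCm39 and counted them per gene with featureCounts. The deposited values are a signal close to CPM (reads scaled to library size), in 1 table for each sex. The columns do not share a common sum, so their library sizes appear to have been rescaled, and genes with few reads are absent (17646 genes listed in males, 17223 in females). All values (100%) were whole multiples of 1 read within 0.001. The 2 columns of libraries with conflicting labels were not used, which left 38 of 40. No pair of replicates agreed within sampling noise.

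Changes were tested with limma 3.58.1 (R 4.3.3) on log2(CPM + 0.5), with the 18 male or 20 female assigned libraries in 1 fit, on genes at 0.5 or more in at least 3 libraries, and with Benjamini-Hochberg adjustment over all genes tested. The difference between the sexes came from a joint fit of the 38 libraries. The alternatives were edgeR 4.0.16 and DESeq2 1.42.0 on the recovered reads, pseudocounts of 0.1 and 2, other filters, scaling by median of ratios, library weights, only the groups compared, a replicate block and leaving out each library. The scripts were tested on simulated data. Promoter stretches are RefSeq sequence of GRCm38.p6.

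Genes were named from *Il11*, the gene lists, the 10 largest rises and falls in each sex among called genes whose libraries do not overlap, every gene called for a difference between the sexes, the 5 with the lowest p in each direction, and *Mylk4* and *Hp*. Some genes of the lists are not reported here. The members and lists were chosen with earlier results of these data known.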

Additional observations from a re-analysis of the deposited data

Results flagged for a closer look

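In groups of 4 libraries, the gap of 1 library to the nearest other was compared with the range of its group (Dixon's critical value). This was done for every gene named here, and chance alone marks about 1 in 20 groups. Many groups were compared, and how many of the values below are of that kind was not tested. Each value below is in CPM, with the range of the other 3 libraries of that group, and its source was not tested. Replicate 1 of the 3-week males stood apart in *Cdkn1a* 99.5 (22.5 to 31.3), *Cfb* 9.87 (4.97 to 5.39), *Ctsb* 784 (699 to 703), *Cxcl9* 18.4 (0.723 to 2.97), *Fga* 0.501 (0.110 to 0.164) and *Gpihbp1* 61.5 (35.3 to 39.6). The same library stood apart in *Igtp* 198 (15.5 to 21.3), *Kcnip2* 74.8 (52.0 to 54.1), *Rgs5* 295 (382 to 387), *Socs1* 4.36 (2.04 to 2.42) and *Tnnt2* 2357 (5982 to 6579). Replicate 1 of the control females stood apart in *C6* 0.0431 (0 in the others), *Il6* 0 (0.0484 to 0.0554), *Nos3* 42.2 (47.6 to 48.5) and *S100a9* 1.81 (0.350 to 0.484). The *C6* value was 1 read, and so was each *Il6* value of the other control females, so these flags rest on single reads. Replicate 1 of the 3-week females stood apart in *Fga* 0.149 (0.874 to 0.911), *Ifit1* 7.18 (7.85 to 7.98) and *Pdk4* 242 (60.9 to 80.7). Replicate 2 of the 3-week females stood apart in *Bdh1* 63.0 (37.5 to 39.6), *Csrp3* 731 (554 to 583) and *Gpihbp1* 41.7 (34.04 to 35.3). Replicate 3 of the control females stood apart in *Cd4* 1.70 (1.02 to 1.12), *Tnfsf11* 0.05003 (0 in the others) and *Zeb2* 18.3 (14.3 to 14.5). The *Tnfsf11* value was 1 read. Replicate 2 of the 3-week males stood apart in *Clcn1* 2.29 (1.28 to 1.36), *Il6* 2.32 (0.515 to 0.578) and *S100a9* 0.512 (0.131 to 0.193). Replicate 4 of the control females stood apart in *Dpt* 76.9 (68.03 to 69.5) and *Fga* 0.499 (0.242 to 0.258). Replicate 3 of the 3-week males stood apart in *Fbxo32* 95.7 (152 to 163) and *Pdgfra* 35.9 (42.5 to 43.4). Replicate 4 of the 3-week males stood apart in *D630003M21Rik* 1.99 (1.196 to 1.25) and *F13a1* 115 (58.9 to 67.0). Replicate 3 of the 3-week females stood apart in *Cd3g* 1.29 (0.266 to 0.441).

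*Il11* was also read in the uninduced transgenic hearts, which had no tamoxifen. These hearts were not compared with others here, but their libraries were in the main limma fit and entered its estimate of the spread and its gene filter. Their mean was 19.6 CPM in males and 26.8 CPM in females, above the highest control library of each sex at 0.147 and 0.166 CPM. No test was made of these values.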

How the results depend on the processing

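A pseudocount of 2 lowered the calls to 678 in males, 791 in females and 567 in both sexes, and dropping the 2-fold minimum raised them to 3610, 5305 and 2857. The other settings gave 1103 to 1655 calls in males, 1311 to 1912 in females and 902 to 1286 in both, with DESeq2 highest. Leaving out 1 library gave 1083 to 1295 calls in males, 1285 to 1459 in females and 865 to 987 in both. The number of genes that differed between the sexes was 0 in the main limma fit and with edgeR, but 15 with DESeq2. In limma it was 30 with library weights and 6 with only the control and 3-week libraries, with *Tlr2* lowest in p there and with DESeq2. It was 0 to 1 without 1 library, the 1 being *Pparg* without replicate 1 of the control males. The cause was not tested. The rise of *Il11* ranged from 7.65 to 12.01 in males and from 7.89 to 12.50 in females on the log2 scale, and passed each time.

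Control and 3-week libraries with the same replicate number had deviations from their group means that correlated at 0.157, 0.131 and 0.0163 in males and at -0.0440, 0.218, -0.0358 and -0.0917 in females, so the numbers were not taken to pair mice. Not every library correlated best with its own number. With the replicate block, 1157 genes were called in males, 1364 in females, 923 in both and 0 for a difference between the sexes. Of the 285 results for single named genes past the threshold, 4 lost it with the block (*Icam2*, *Il11ra1*, *S100a9* and *Zeb2*, all in males), 0 lost it with edgeR, 1 with DESeq2 and 19 on leaving out 1 library. None of the 374 results changed direction. The reads per library limit what can be said of genes under about 0.5 CPM.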

Other observations

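Clotting and fibrinolysis genes rose in both sexes for 6 of 15 genes tested, against 11.3% of all genes. *F5*, coagulation factor V, went from 0.1499, 0.303 and 0.212 to 2.16, 2.25, 2.96 and 2.83 CPM in males (2.08 ± 0.21, adjusted p = 4.1e-07) and from 0.215, 0.145, 0.350 and 0.111 to 2.12, 1.48, 2.98 and 2.32 CPM in females (1.93 ± 0.23, adjusted p = 1.41e-06). Its anticoagulant counterpart *Pros1*, protein S (1.36 ± 0.14 and 1.37 ± 0.15), the plasminogen activator *Plat* (0.99 ± 0.18 and 0.73 ± 0.16), *F13a1*, the factor XIII chain that macrophages also make (1.35 ± 0.31 and 1.64 ± 0.13), and *Vwf*, von Willebrand factor (1.23 ± 0.19 and 0.92 ± 0.19), rose as well. 

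Of 16 renin-angiotensin, endothelin and adrenergic genes tested in both sexes, 1 rose in both (6.25%, against 11.3% of all genes). In both sexes 2 fell (12.5%, against 5.91%). The gene that rose was *Ace*, the angiotensin-converting enzyme (1.09 ± 0.20 and 0.79 ± 0.18, adjusted p = 0.000538 and 0.00196). *Corin*, the cardiomyocyte protease that activates natriuretic peptides, fell from 166, 230.4 and 197 to 82.5, 86.9, 132 and 143 CPM in males (-0.86 ± 0.19, adjusted p = 0.00275) and from 174, 183, 156 and 130.3 to 107, 86.3, 80.0 and 90.3 CPM in females (-0.82 ± 0.13, adjusted p = 3.98e-05). *Ednrb*, an endothelin receptor, fell in females (-0.85 ± 0.15, adjusted p = 0.000155) and was at 0.20 ± 0.19 in males (difference -1.04 ± 0.25, adjusted p = 0.219, and 0.0395 with DESeq2). At the intercalated disc *Tjp1*, a scaffold of cell junctions, fell in both sexes (-0.84 ± 0.16 and -0.70 ± 0.15). *Ctsb*, a lysosomal protease, rose (0.96 ± 0.12 and 0.89 ± 0.11), whereas the muscle ubiquitin ligases *Fbxo32* (-0.14 ± 0.18 and -0.28 ± 0.13) and *Trim63* (-0.26 ± 0.15 and -0.17 ± 0.15) passed in neither sex.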
